A study of Mus musculus and Mus musculus
Rattus norvegicus with 30 samples.

Results

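Opened ATAC peaks without a Cdx2 peak are chromatin regions that were more accessible after Cdx2 was induced in mouse embryonic stem cells (mESCs) but at which no Cdx2 binding peak was called. They were selected from the ATAC-seq peaks on chromosomes 1 to 19 on the ATAC read counts themselves and on the Cdx2 ChIP-seq peaks of the same cells. Both ATAC libraries were scaled to their mean total, 1 was added, and a peak was kept with a scaled sum of at least 40 reads, a log2 ratio of mCdx2-OE to WT above 1 and no base shared with a Cdx2 peak. This gave 4151 regions of the 122350 ATAC peaks of the series, and of the 83368 autosomal peaks that reached the minimum sum. Of the 10678 autosomal peaks that opened by this measure (12.8% of those tested), the 4151 unbound ones made up 38.9%, and the other 6527 overlapped a Cdx2 peak and are called bound opened peaks here. The comparison set was the 50259 unbound peaks whose ratio stayed within 2-fold, called unchanged unbound peaks.

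The cells were mESCs carrying a Flag-tagged mouse Cdx2 (mCdx2) or rat Cdx2 (rCdx2) on a lentivirus in a Tet-On system, in which doxycycline (DOX) switches the transgene on, here for 48 h by the methods of the study. The groups labelled mCdx2-OE and rCdx2-OE overexpressed these proteins and the controls were labelled WT. The study describes its RNA and ATAC comparisons as being between cells with and without DOX, and the labels do not say whether the WT libraries came from transduced cells. ATAC-seq had 1 library of WT and 1 of mCdx2-OE, the anti-Flag ChIP-seq 1 library of mCdx2-OE and 1 of rCdx2-OE with peaks called on merged reads, and RNA-seq 2 libraries of each group. The same 2 constructs were also induced in RMES cells, allodiploid stem cells with 1 mouse and 1 rat chromosome set, of which the mouse alleles are used here.

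Cdx2 is a homeobox transcription factor that directs cells of the early embryo to the trophectoderm and later patterns the posterior body and the intestinal epithelium. A transcription factor can open chromatin at the sites it binds, and the genes it switches on can include further factors that open sites of their own. Promoters of genes that become active also gain accessibility, often at CpG-rich sequence.

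The central 300 bases of the 5 regions with the largest ratio (scaled sum of at least 100, outside exons, 1 per nearest gene) are shown because they are the clearest cases of opening without a Cdx2 peak. They are read from the plus strand of GRCm38, the assembly of mm10, and capitals mark any match, on either strand, to 4 words: TTTATNG of Cdx and posterior Hox proteins, AGATAA of Gata factors, GGAATG of Tead factors and GCCNNNGGC of Tfap2 factors.
Peg10 region: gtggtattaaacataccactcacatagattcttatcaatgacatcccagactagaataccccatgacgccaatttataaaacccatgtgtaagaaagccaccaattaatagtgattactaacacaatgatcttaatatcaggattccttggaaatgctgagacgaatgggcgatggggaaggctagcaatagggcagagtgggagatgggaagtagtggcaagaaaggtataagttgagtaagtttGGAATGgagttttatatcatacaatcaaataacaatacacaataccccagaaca
Zwint region: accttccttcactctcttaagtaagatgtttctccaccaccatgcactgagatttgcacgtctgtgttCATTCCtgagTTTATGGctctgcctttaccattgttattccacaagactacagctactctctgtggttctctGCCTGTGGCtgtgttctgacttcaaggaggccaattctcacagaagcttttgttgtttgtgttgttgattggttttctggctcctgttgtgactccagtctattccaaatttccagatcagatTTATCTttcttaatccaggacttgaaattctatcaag
Frmpd1 region: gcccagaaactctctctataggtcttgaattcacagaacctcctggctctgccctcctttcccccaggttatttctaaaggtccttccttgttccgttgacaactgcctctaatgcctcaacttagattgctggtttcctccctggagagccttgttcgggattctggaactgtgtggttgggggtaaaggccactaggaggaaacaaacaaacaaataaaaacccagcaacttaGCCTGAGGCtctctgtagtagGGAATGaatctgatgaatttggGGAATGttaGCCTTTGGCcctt
Igf2r region: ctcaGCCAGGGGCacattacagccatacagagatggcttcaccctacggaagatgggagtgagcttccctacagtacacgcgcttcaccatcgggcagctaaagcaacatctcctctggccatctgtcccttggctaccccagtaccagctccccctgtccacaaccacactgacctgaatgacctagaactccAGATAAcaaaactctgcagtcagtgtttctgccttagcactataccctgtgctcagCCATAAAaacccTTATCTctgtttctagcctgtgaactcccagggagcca
Tmem212 region: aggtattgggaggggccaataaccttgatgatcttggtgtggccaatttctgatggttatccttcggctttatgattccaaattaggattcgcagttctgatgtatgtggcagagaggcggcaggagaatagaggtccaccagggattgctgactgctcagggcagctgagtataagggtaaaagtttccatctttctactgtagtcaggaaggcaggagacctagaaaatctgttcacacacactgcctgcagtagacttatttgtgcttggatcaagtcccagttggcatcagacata

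The Peg10 region (chr6:4760965-4761264) was intergenic, 13708 bp from the start of Peg10, an imprinted, retrotransposon-derived gene required in the placenta. Its peak (chr6:4760560-4761668) began directly past the annotated end of Peg10 at 4760517. It held 5 WT and 133 mCdx2-OE reads, and after scaling this was a 16.9-fold difference with an exact (Clopper-Pearson) 95% counting interval of 8.21 to 61.5. With 1 ATAC library a condition, these intervals cover counting error alone and not the spread between cultures, and no p-value was computed for any ATAC difference. RNA of Peg10 rose from 170 and 177 CPM (counts scaled to the library total) in the WT libraries to 5229 and 4847 CPM in the mCdx2-OE libraries, so the groups were far apart. The nearest Cdx2 peak was 6988 bp away.

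The Igf2r region (chr17:12723948-12724247) lay in an intron of Igf2r, the imprinted receptor that clears Igf2, with 10.6 WT and 107 mCdx2-OE scaled reads and a 9.30-fold difference (interval 5.14 to 22.6). Its shown bases held 1 Cdx, 2 Gata and 1 Tfap2 word, although the nearest called Cdx2 peak was 13546 bp away. Igf2r RNA was 126 and 126 CPM in WT and 168 and 151 CPM in mCdx2-OE, a log2 fold change of 0.34 that did not reach the 2-fold requirement. The Frmpd1 region (chr4:45198298-45198597), in an intron of Frmpd1, had 8 and 125 reads (10.5-fold, interval 5.68 to 27.3) and held 2 Tead and 2 Tfap2 words. Frmpd1 RNA rose by a log2 fold change of 1.34 ± 0.26 (SE, adjusted p = 0.00021).

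The Zwint region (chr10:72563141-72563440), 91555 bp from the start of the kinetochore gene Zwint, had 10 and 162 reads and 1 match to each of the 4 words. The Tmem212 region (chr3:27854392-27854691) had 8 and 138 reads without any of the 4 words, and its nearest gene was not among the genes counted in mESCs. Of these 5 regions, 4 held at least 1 of the 4 words. Among all opened unbound peaks more than 1 kb from a start site, each word was in 15.7% (Gata) to 27.1% (Tead). The share of those peaks with at least 1 of the 4 was not counted. All 5 regions were more than 1 kb from the nearest Cdx2 peak, with distances of 1911 bp (Tmem212 region) to 15661 bp (Zwint region).

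A second set of 3 regions is shown because these lay within 50 kb of the start of transcription factor genes that rose, the region outside exons with the most reads being taken for each gene. The Hoxa4 neighbour was selected for both Hoxa9 and Hoxa10, the Evx1 neighbour for Hoxa13 and the third for Fosl2.
Fosl2 neighbour: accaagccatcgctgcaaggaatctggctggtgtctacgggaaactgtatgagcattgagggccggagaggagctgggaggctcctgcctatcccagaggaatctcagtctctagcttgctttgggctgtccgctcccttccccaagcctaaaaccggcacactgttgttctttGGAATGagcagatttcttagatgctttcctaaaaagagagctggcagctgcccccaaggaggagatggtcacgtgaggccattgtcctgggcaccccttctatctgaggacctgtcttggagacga
Hoxa4 neighbour: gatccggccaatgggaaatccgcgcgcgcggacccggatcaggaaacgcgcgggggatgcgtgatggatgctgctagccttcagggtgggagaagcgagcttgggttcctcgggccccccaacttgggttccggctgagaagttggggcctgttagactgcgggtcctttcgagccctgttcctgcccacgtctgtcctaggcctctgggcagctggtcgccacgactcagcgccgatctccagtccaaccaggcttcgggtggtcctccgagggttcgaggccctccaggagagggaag
Evx1 neighbour: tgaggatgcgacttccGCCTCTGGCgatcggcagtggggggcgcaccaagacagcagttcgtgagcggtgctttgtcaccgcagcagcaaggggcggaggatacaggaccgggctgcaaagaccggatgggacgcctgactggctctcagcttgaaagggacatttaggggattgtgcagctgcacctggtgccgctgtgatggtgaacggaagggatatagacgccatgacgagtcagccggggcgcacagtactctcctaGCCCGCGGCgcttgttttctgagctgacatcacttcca

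The Fosl2 neighbour (chr5:32143440-32143739) was in an intron of Fosl2, an AP-1 subunit, with 17 WT and 78 mCdx2-OE reads (3.27-fold, interval 1.99 to 6.11) and 1 Tead word. The Evx1 neighbour (chr6:52306022-52306321) was intergenic, 7327 bp from Evx1 at the far end of the Hoxa cluster, with 59 and 203 reads (2.52-fold, interval 1.89 to 3.45) and 2 Tfap2 words. The Hoxa4 neighbour (chr6:52191948-52192247) lay 344 bp from the start of Hoxa4 in an intron annotated to Hoxa3, had 24 and 67 reads (2.02-fold, interval 1.28 to 3.44), held none of the 4 words and was 674 bp from a Cdx2 peak.

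The members were a moderate class of opening. Their median was 21.2 scaled reads in WT and 60.0 in mCdx2-OE, with a median log2 ratio of 1.31 (quartiles 1.13 and 1.64), against medians of 10.6 and 57.4 reads and a log2 ratio of 2.25 at the bound opened peaks. A log2 ratio above 2 was found at 514 members (12.4%) and above 3 at 72, and at 60.1% of the bound opened peaks. These ratios chose the members and are a description. The lower bound of the counting interval exceeded 2-fold at 948 of 4151 members (22.8%), and no member was at 0 reads in WT. At the ratio limit, the last member inside had 35 and 96 reads, with a log2 ratio barely above 1, and the first unbound peak outside had 90 and 245 reads (0.9998), so the classes adjoin at the limit. At the sum limit, the lowest member had a scaled sum of 40.03 and the highest peak left out 39.89.

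Chromosomes 3 and 16 stood apart and bear on every count. The median log2 ratio of all tested ATAC peaks was 0.39 on chromosome 3 and 0.22 on chromosome 16, and from -0.29 to -0.11 on the other autosomes. These 2 chromosomes held 961 members, 23.2% of the members against 10.2% of the tested peaks, so that 11.3% of their tested peaks were members against 4.26% on the other autosomes. In RNA, chromosome 3 alone was higher than every other autosome, with a median log2 fold change of protein-coding genes in mCdx2-OE of 0.37, while chromosome 16 at 0.17 lay within the range of the others, from -0.22 to 0.22. In RMES mouse alleles the medians were 0.18 on chromosome 3 and -0.67 on chromosome 16. Their part in the results was not tested, and the main results are also given over the 3190 members on the other 17 autosomes.

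**Figure D1:**
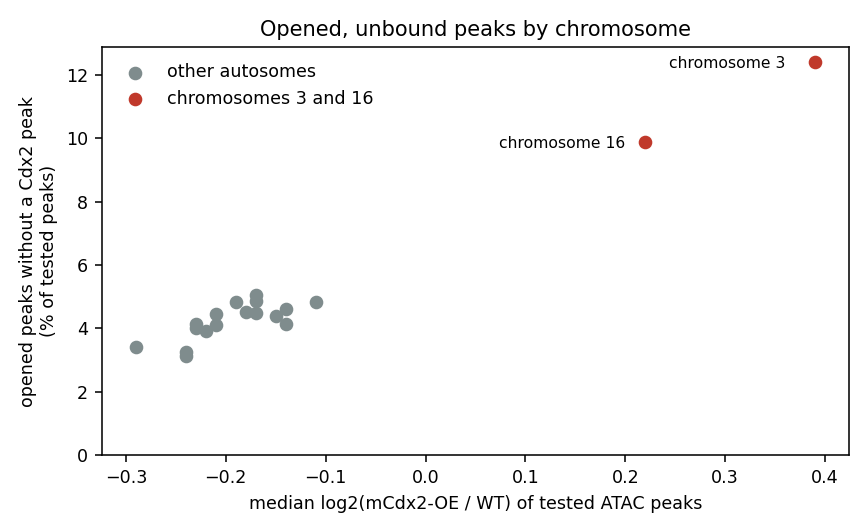
Each point is 1 of the 19 autosomes, with the median log2 ratio of its tested ATAC peaks on the horizontal axis and the share of tested peaks that opened without a Cdx2 peak on the vertical axis. Chromosomes 3 (12.4%) and 16 (9.87%) lie apart from the other autosomes, which lie between 3.14% and 5.06%.

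The members fell into 2 kinds of region. A protein-coding transcription start site lay within 1 kb of 1057 members (25.5%), called promoter members, whereas this was so for 3.25% of bound opened peaks and 25.2% of unchanged unbound peaks. Of the other 3094 members, called distal, 1689 lay in gene bodies and 1405 were intergenic. Promoter members were long and well covered, with a median length of 1368 bp and medians of 87.1 WT and 200 mCdx2-OE scaled reads. Distal members had a median length of 693 bp, with 16.5 and 49.5 scaled reads. The promoter share moved with the scaling, since all tested promoter peaks had a median log2 ratio of 0.28 and all tested distal peaks of -0.30. With the ratios centred on these 2 medians separately, promoter members fell to 383 of 5854 regions (6.54%), while a ratio above 4-fold left 19 of 514 (3.70%).

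Base composition set the unbound and the bound opened peaks apart. The median GC content of the central 300 bases was 52.3% in the members and 43.3% in the bound opened peaks, against 52.7% in the unchanged unbound peaks. Promoter members had a median GC content of 71.3%, with an observed-to-expected CpG ratio of 0.88, values in the range of CpG islands, the CpG-rich stretches found at many promoters. Unchanged unbound promoter peaks had 63.7% and 0.74. Distal members had 50.0% and 0.24, close to unchanged unbound distal peaks at 51.0% and 0.27 and above bound opened distal peaks at 43.3% and 0.20. Without chromosomes 3 and 16 the promoter members were at 72.3% and the distal members at 50.3%. Repeats covered on average 12.9% of the central bases of members and 15.6% of those of bound opened peaks.

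**Figure D2:**
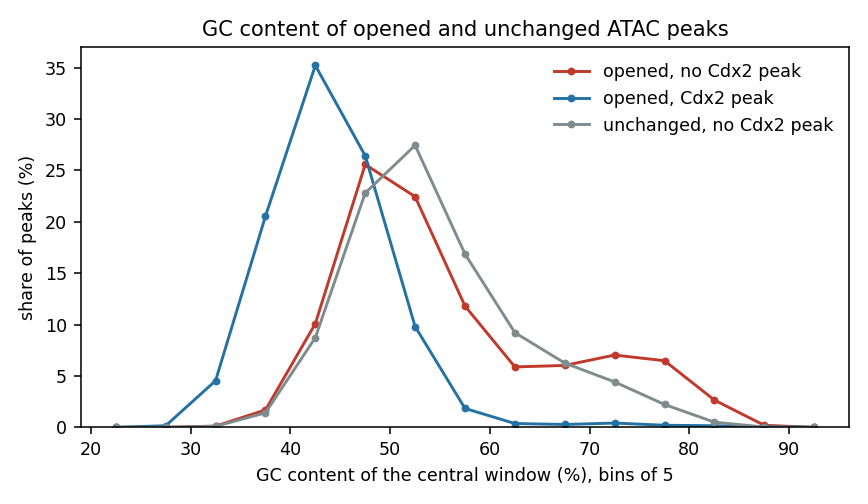
Share of peaks (vertical axis, %) by GC content of the central window (horizontal axis, bins of 5 percentage points) for the 4151 members, the 6527 bound opened peaks and the 50259 unchanged unbound peaks. The bound opened peaks lie to the left with a median of 43.3%, and the members have a second rise above 70% that is made by promoter peaks.

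Sequence words were searched in the central 300 bases on both strands, and a match is a description of the letters and not a binding site. In distal members the most frequent of the 17 words was that of Tead factors, the partners of Yap and Taz that help to specify trophectoderm, at 27.1% (95% Wilson interval 25.5 to 28.6), against 19.4% of unchanged unbound and 23.2% of bound opened distal peaks. It was also the most frequent word over all tested distal peaks. The words differ in length, so their shares are compared between sets and not with each other. The Cdx word stood in 21.8% (20.4 to 23.3) of distal members, above the 10.2% of unchanged unbound distal peaks and below the 47.8% of bound opened distal peaks. The word of Tfap2 factors, which act in trophoblast and surface ectoderm, was found in 19% (17.6 to 20.4) of distal members, 12.7% of unchanged unbound and 7.0% of bound opened distal peaks. The Gata word was present in 15.7% (14.4 to 17.0), 11.1% and 21.6% of these sets. Over all 67823 tested distal peaks the 4 words were in 20.3% (Tead), 14.7% (Cdx), 11.2% (Tfap2) and 12.8% (Gata). The interval of distal members lay above that of unchanged unbound distal peaks for 8 of the 17 words, these 4 and those of AP-1, Hox with Pbx, homeodomain and Sox factors, below it for the Ctcf word and overlapped it for the other 8, which concerns counting over regions of 1 library a condition and not replicate error. Without chromosomes 3 and 16, the shares in distal members were 28.1% for Tead, 22.4% for Cdx, 19.2% for Tfap2 and 15.3% for Gata.

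For words of the pluripotency factors Pou5f1, Esrrb and Klf the intervals of distal members and unchanged unbound distal peaks overlapped. The Sox word ACAATGG was at 6.63% (5.80 to 7.56) against 5.04% (4.82 to 5.26). It was also in 7.62% (7.22 to 8.03) of closed unbound and 6.48% of bound opened distal peaks, so it was not particular to the members. The octamer word ATGCAAAT of Pou factors was in 1.62% of distal members, 2.14% of unchanged and 4.58% of closed unbound distal peaks, and the Esrrb word AAGGTCA in 6.27%, 6.94% and 12.1%. The Klf word CCACNCCC was in 15.4%, 16.2% and 19.3%. The word TAATTA, read by many homeodomains, was in 6.76% of distal members, 6.73% of closed unbound and 18.7% of bound opened distal peaks. Among all members, 53 windows held both TTTATNG and TAATTA, of 711 with the first and 222 with the second.

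Promoter members differed from distal ones in their words. The Tfap2 word was in 45.5% (42.5 to 48.5) of promoter members and 29.0% of unchanged unbound promoter peaks, whereas the Cdx word was in 3.50% and 4.39% and the Tead word in 9.37% and 10.6%. GCCNNNGGC is rich in G and C, and GC content moved with it. Among tested peaks with a GC content above 56.3%, 43.9% of members and 30.7% of unchanged unbound peaks held the word, and up to a GC content of 46.3% it was 10.2% and 5.95%. The upper range reaches 90.7%, and GC content was not matched within a range, so it can still differ between the sets there. The Cdx word up to 46.3% GC was in 30.7% of members, 16.2% of unchanged unbound and 51.7% of bound opened peaks, so the order of the 3 sets for this word was the same in this range of GC content as over all distal peaks.

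**Figure D3:**
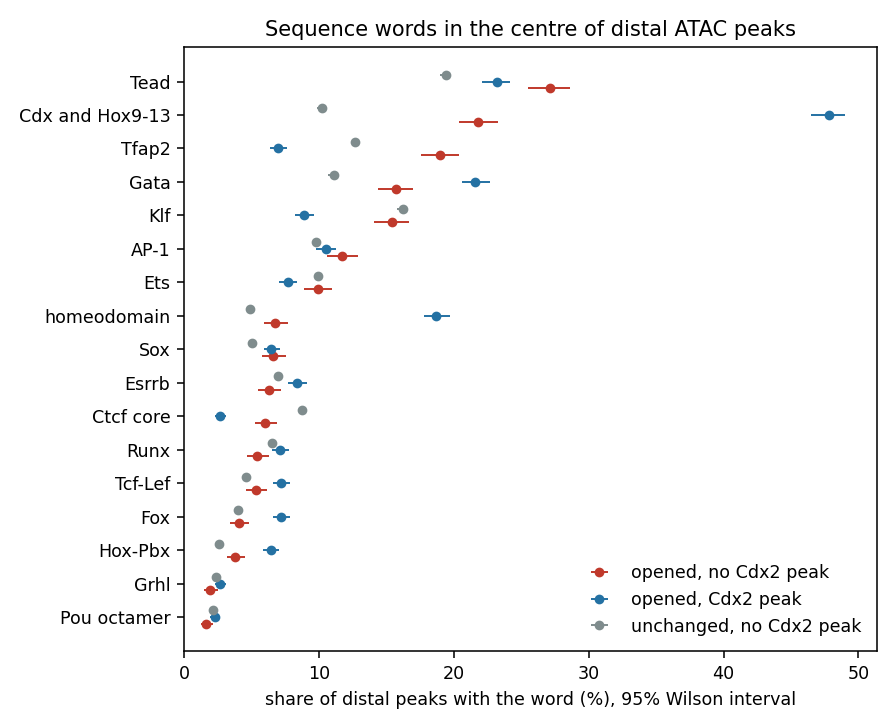
Share of distal peaks (horizontal axis, %) whose central 300 bases hold each of 17 sequence words (vertical axis), with 95% Wilson intervals for counting error, for 3094 distal members, 6315 bound opened and 37615 unchanged unbound distal peaks. The Cdx word separates the sets most, at 47.8%, 21.8% and 10.2%, and the Tead and Tfap2 words have their highest share in the members among the 3 sets.

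Cdx2 binding near the members was assessed on peaks, which were used to choose them only where they overlapped. The median distance from a member to the nearest Cdx2 peak was 9851 bp, against 12614 bp for unchanged unbound peaks, and 8.09% of members against 6.07% had a Cdx2 peak within 1 kb. Without chromosomes 3 and 16 the medians were closer, at 11508 bp and 13278 bp, and the shares within 1 kb were 7.96% and 5.86%. For 35 members the gap was at most 100 bp, and when members with a Cdx2 peak within 1 kb were also removed, 3815 remained. A bound opened peak lay within 50 kb of 42.8% of members and of 31.8% of unchanged unbound peaks. These 50 kb shares include chromosomes 3 and 16 and were not recomputed without them. Of neighbouring pairs of members along a chromosome, 8.06% were within 10 kb of each other, against 6.81% for bound opened peaks and 46.9% for the far more numerous unchanged unbound peaks. When only Cdx2 peaks covering at least 50% of the ATAC peak excluded it, 6418 regions qualified.

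The ChIP-seq of RMES cells gave a separate measure of Cdx2 binding, which the choice of members did not use. A Cdx2 peak called in RMES cells on mm10 overlapped 21 of 4151 members, 0.506% (Wilson interval 0.331 to 0.772), against 68.6% of bound opened peaks and 0.289% (0.245 to 0.339) of unchanged unbound peaks. On the 17 other autosomes the share of members was 0.470%. The 21 members had from 34 to 183 RMES ChIP reads over both libraries with a median of 46.0, below the median of 78.0 over all RMES peaks, and 6 of them held the Cdx word. The region with the most reads was on chromosome 16, 44080 bp from Zpld1. It had 115 and 68 ChIP reads in the RMES libraries taken as mCdx2-OE and rCdx2-OE. In mESCs it had 2 ATAC reads in WT and 71 in mCdx2-OE. When an RMES peak had to cover 50% of the member, the share was 0.0723%, and among members with a log2 ratio above 2 it was 1.17%.

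RNA at the promoter members was measured in replicated libraries that the choice of members did not use. A gene was called when its adjusted p in edgeR was below 0.05 and it changed more than 2-fold. The labels do not say whether replicate libraries came from separate cultures, so p-values measure the spread between these libraries, and in bulk RNA fewer cells of a type and less RNA per cell cannot be told apart. Of 1118 genes with a member within 1 kb of a start site, 994 passed the filter on low counts, and 390 of these (39.2%) rose in mCdx2-OE and 42 (4.23%) fell, with a median log2 fold change of 0.66. Over all 16000 genes tested, 18.4% rose and 15% fell, and over the 13513 protein-coding genes of chromosomes 1 to 19 it was 18.4% and 12.5%, with a median of -0.01. Genes with a bound opened peak at the promoter rose in 30.0% of 190 and fell in 5.79%, and those with an unchanged unbound peak rose in 16.2% and fell in 12.1%. On chromosomes other than 3 and 16, 286 of 677 genes at members rose (42.2%) against 17.8% of all protein-coding genes there, and on these 2 chromosomes 104 of 317 (32.8%) against 25.3%. Of 628 tested genes with a promoter member and no bound opened peak assigned, 37.3% rose and 5.25% fell. With promoter and distal ratios centred separately, 175 of 344 rose (50.9%).

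The rCdx2-OE libraries, which were not used to select peaks but were compared with the same 2 WT libraries, gave 397 of 994 genes higher (39.9%) and 42 lower (4.23%), against 19% and 15.4% over all genes tested. In RMES mouse alleles, where 1 mCdx2-OE and 1 rCdx2-OE library were compared with 2 libraries labelled WT, 360 of 1036 genes were higher (34.7%) and 109 lower (10.5%), against 28.3% and 16.1% of all 16887 genes tested. Without chromosomes 3 and 16 the RMES shares were 38.6% higher and 6.21% lower. In RMES cells, however, genes with a closed unbound peak at their promoter in mESCs were higher in 34.6%, so a high share of risen genes was not particular to the members there. Cdx2 itself was at 129 and 127 CPM in the RMES libraries labelled WT, at 968 CPM in the mCdx2-OE and at 4.45 CPM in the rCdx2-OE library, whose transgene is rat, so the controls of RMES cells were not low in Cdx2 RNA.

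**Figure D4:**
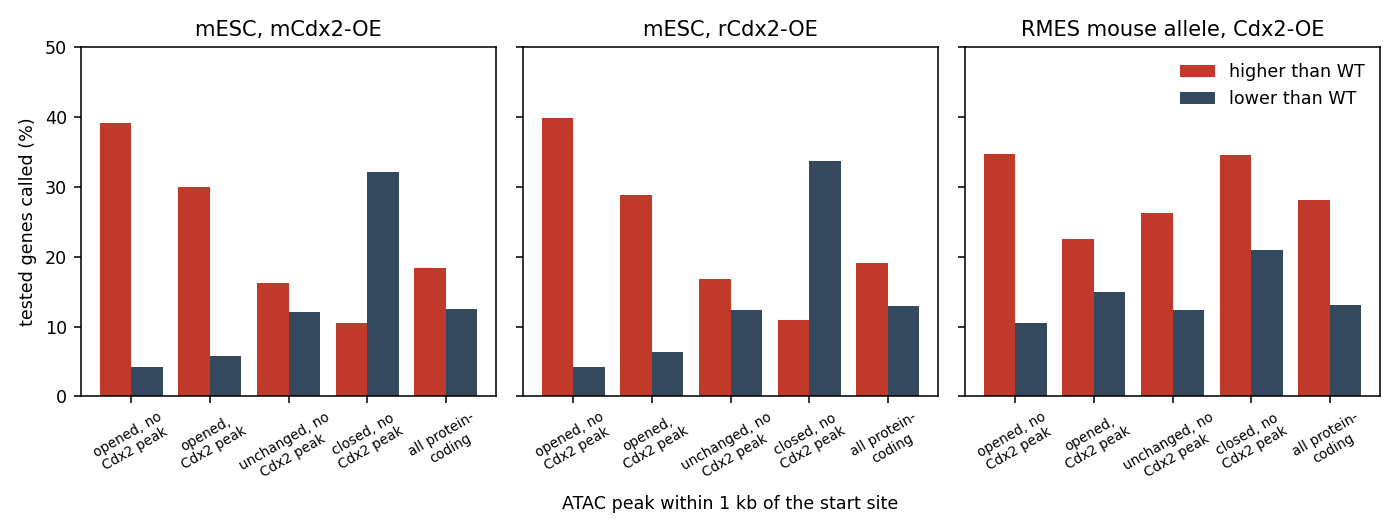
Share of tested genes called higher (red) or lower (dark) than WT on the vertical axis (%), by the ATAC peak within 1 kb of the start site on the horizontal axis, in 3 RNA comparisons. In mESCs the genes at opened peaks without a Cdx2 peak have the highest share risen, 39.2% and 39.9%, while in RMES mouse alleles genes at closed peaks reach 34.6%, next to 34.7%.

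The genes that rose were often poorly expressed before. Among promoter-member genes below 1 CPM in WT, 137 of 163 (84.0%) rose and 2 fell, compared with 58.5% of all 1892 such protein-coding genes. From 1 to 10 CPM, 170 of 282 (60.3%) rose against 28.8%, and at 10 CPM or more 83 of 549 (15.1%) rose against 5.57%. A gene below 1 CPM in WT enters the test mostly when another group is high, so the first share is partly made by the filter. In each of the 3 ranges the share at promoter members was above that of all protein-coding genes. Across 944 promoter members and their nearest genes, Pearson's r of the ATAC log2 ratio and the RNA log2 fold change was 0.17 and Spearman's rank correlation 0.18, a description over peaks of the same 2 ATAC libraries whose range the selection narrows.

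Genes were also grouped by the peaks, promoter peaks included, whose nearest start site within 100 kb was theirs. Of 1489 tested genes with members but no bound opened peak assigned, 30.4% rose and 8.26% fell. Of 1892 with bound opened peaks alone the shares were 20.4% and 8.03%, of 933 with both 34.3% and 3.64%, and of 9199 with neither 14.5% and 15.0%. The share risen was 29.7% with 1 member, 37.9% with 2 and 44.9% with 3 or more. By distance of the nearest member, 28.3% of genes rose from 1 to 10 kb, 25.3% up to 50 kb and 24.3% up to 100 kb, and for the nearest bound opened peak the shares were 27.3%, 22.6% and 25.9%. Beyond 1 kb the shares of the 2 kinds of opened peak were close, and their difference was not tested.

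The 6 promoter-member genes with the largest rises were each at a low level in WT, with means up to 1.29 CPM. Pla2g7 (chr17:43568098-43612201), a secreted phospholipase that inactivates platelet-activating factor, was at 0.113 and 0.183 CPM in WT and 25.6 and 25.2 CPM in mCdx2-OE (log2 fold change 7.34 ± 0.23, adjusted p = 2.2e-13). Its promoter peak had 39 and 168 ATAC reads, and it also rose in RMES cells, from 0.339 and 0.251 to 21.9 and 20.5 CPM. Igf2 (chr7:142650766-142666816), the imprinted growth factor of fetus and placenta, was at 0.085 and 0.183 CPM in WT and 20.2 and 16.5 CPM in mCdx2-OE (7.0 ± 0.30, adjusted p = 9.7e-12), with 22 and 67 reads in its peak. The Igf2 peak (chr7:142659125-142659926) lay inside the gene, at an internal start site. No bound opened peak was nearest to Igf2, whereas Pla2g7, Lrrc8c and Gab2 had 2 each and Tmprss2 had 5. Tmprss2, a transmembrane serine protease of epithelia, rose from 0.581 and 0.457 to 41.6 and 45.7 CPM, but lies on chromosome 16. Lrrc8c, a subunit of volume-regulated anion channels, rose from 0.836 and 0.914 to 44.8 and 49.8 CPM, and Gab2, an adaptor of receptor tyrosine kinases, from 0.709 and 0.754 to 37.6 and 35.4 CPM. In all 5 genes both mCdx2-OE libraries lay far above both WT libraries.

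Cdx2 was also among the 6, and checks the labels in mESCs. It was at 1.36 and 1.21 CPM in WT and 97.9 and 127 CPM in mCdx2-OE (log2 fold change 6.45 ± 0.64, adjusted p = 2e-07), and its log2 fold change in rCdx2-OE was 5.74 ± 0.63. Reads of the transgene and of the endogenous gene cannot be told apart in these counts. Both Cdx2 members covered exons, exon 1 with 65 and 186 ATAC reads (log2 ratio 1.07) and exon 3 with 5 and 53 reads (2.77), whereas the peak between them, which covers no exon, had 131 and 165 reads (-0.10). ATAC reads of an integrated Cdx2 coding sequence would fall on exons, and the endogenous locus and the transgene cannot be told apart.

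Genes at opened promoters also fell, and the 4 largest falls are given here. Ina, a neuronal intermediate filament, was at 43.9 and 43.4 CPM in WT and 4.22 and 2.80 CPM in mCdx2-OE (log2 fold change -3.60 ± 0.20, adjusted p = 1.5e-10), while its promoter peak had 55 and 173 ATAC reads. Epha1, an ephrin receptor, fell from 11.8 and 11.4 to 0.878 and 0.911 CPM, and Wnt5b, a Wnt ligand, from 9.79 and 11.1 to 1.09 and 1.5 CPM. Gm21958, on chromosome 3, had 129 and 131 reads in WT and 0 in both mCdx2-OE libraries, which against 3 counts over the group is at least 18.9-fold lower.

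**Figure D5:**
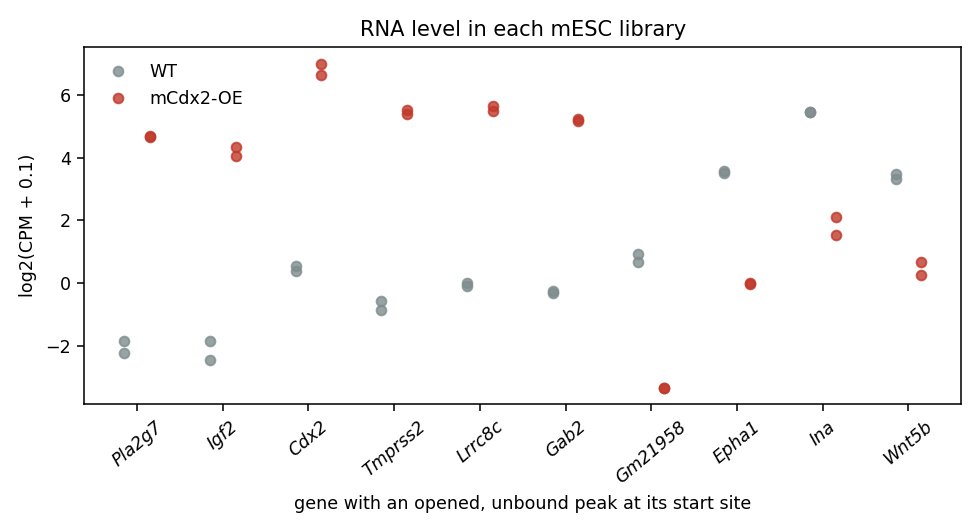
RNA level as log2(CPM + 0.1) on the vertical axis in the 2 WT (grey) and 2 mCdx2-OE (red) mESC libraries for the 6 largest rises and 4 largest falls among genes with an opened, unbound peak at the start site (horizontal axis). The 2 libraries of a group lie close to each other in each gene and the groups do not overlap.

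Of the 10 genes with the most members assigned, 7 rose, beside 18.4% of all genes tested. Among tested genes with 3 or more members it was 44.9%, and among those with both members and bound opened peaks 34.3%. Abca4, a lipid transporter of photoreceptors, had 9 members and rose from 0.595 and 0.788 to 2.72 and 3.06 CPM, and Maml3, a Notch coactivator, had 7 and rose from 0.283 and 0.377 to 7.99 and 7.15 CPM. Both lie on chromosome 3. Trio, a guanine nucleotide exchange factor, had 7 members and rose from 17.9 and 18.5 to 86.4 and 87.9 CPM. The members at start sites of Trio (chr15:27919750-27920129), Psd3 and Agap1 lay inside the genes, at internal start sites, as did 1 of the 2 of Lrrfip1 (chr1:91052210-91054333). Lrrfip1, Prickle1 (a planar cell polarity protein), Psd3 and Rtn1 (a reticulon of the endoplasmic reticulum) had 6 members each, with log2 fold changes of 2.27, 2.63, 3.72 and 2.95. All 7 risen genes also had bound opened peaks assigned, from 2 for Maml3 to 6 for Trio. Agap1 and Pwwp2b, also with 6, had 0.29 and -0.55 and did not pass the 2-fold requirement, and Gm11084 was not tested.

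Genes of the factors whose words were searched were read from 14 lists, beside which the 18.4% risen and 15% fallen of all genes tested stand. Of the Cdx list, Cdx2 rose, and the other tested gene, Cdx1, was at 59.6 and 56.7 CPM in WT and 30.4 and 31.5 CPM in mCdx2-OE and did not pass the 2-fold requirement. Of the posterior Hox genes, the paralogues that act late along the body axis, 11 of 14 tested rose and none fell, and 9 of 16 (56.2%) had a member within 50 kb, as did 24.0% of all 20696 protein-coding genes of chromosomes 1 to 19. These 9 genes lie in clusters and shared 7 members between them, so the count is not one of separate regions. Hoxa9 was at 0.0283 and 0.0228 CPM in WT and 18.3 and 23.5 CPM in mCdx2-OE, Hoxa10 at 0.0992 and 0.0571 and then 6.94 and 8.78 CPM, and Hoxd9 at 0.184 and 0.297 and then 4.77 and 6.31 CPM. The other risen genes were Hoxa13, Hoxb9, Hoxc9, Hoxc10, Hoxc13, Hoxd10, Hoxd11 and Hoxd13. Whether paralogues shared reads in stretches of similar sequence was not tested. The 4 Hox clusters held 10 members, of which 5 were in the Hoxa cluster, where 7 bound opened peaks lay among 28 tested peaks.

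Of the Gata genes, 4 of 5 tested rose. Gata2, a factor of trophoblast and blood, rose from 2.14 and 1.82 to 75 and 74.9 CPM and Gata3, a trophectoderm regulator, from 1.6 and 1.62 to 13.9 and 14.3 CPM. Gata4 and Gata6, factors of primitive endoderm, had log2 fold changes of 2.07 and 3.12. Of the Tead list, Tead3 (1.44) and the coactivator Wwtr1 (1.62) rose among 6 tested. Tead1 had a promoter member and a log2 fold change of 0.91 (edgeR adjusted p = 1.9e-07), short of the 2-fold requirement. None of the 2 tested Tfap2 genes passed the 2-fold requirement. Tfap2c was expressed in both groups, at 122 and 122 CPM in WT and 116 and 129 CPM in mCdx2-OE. Tfap2a, at a lower level, had a log2 fold change of 0.61. Of 7 tested AP-1 genes, Jun (1.70), Fosl2 (2.37), Batf3 (2.55) and Atf3 (3.13) rose.

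In the remaining lists the directions were mixed. Of 7 tested Ets genes, Ets1 (2.76), Ets2 (2.22), Ehf (1.44) and Elf3 (1.0) rose, and Etv1 (-2.10), Etv4 (-2.58) and Etv5 (-1.04), targets of FGF signalling, fell. Ets2, which supports trophoblast stem cells and like Runx1 lies on chromosome 16, had a promoter member with a log2 ratio of 1.28. Runx1, a factor of blood stem cells, had 4 members assigned, of which 1 was at an internal start site, and rose by 2.09 on the log2 scale. Foxa1, with a promoter member, rose from 0.411 and 0.217 to 0.920 and 0.911 CPM, and Foxa2, Foxc1 and Foxc2 also rose while Foxa3 fell. Klf6 (1.84), Grhl3 (1.72) and Tcf7l2 (1.13) rose. Klf2, Klf17, Grhl2, Lef1, Nr5a2, Pou5f1 and Sox15 fell, of which Lef1 alone had a member within 50 kb.

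Marker lists of cell types were read for members within 50 kb of their genes, beside which stand the 24.0% of all protein-coding genes with such a member and the 18.4% risen and 15% fallen of all genes tested. Of 14 trophoblast stem cell markers 9 had such a member, and 9 of 13 tested rose and 1 fell. Krt8 and Krt18 are neighbours that can share members, so this count is not one of separate regions. Tfap2c (0.00) and Tead4 (0.15) also had a member and did not pass the 2-fold requirement, and Elf5, with a member, was not tested. Fgfr2, the receptor that maintains trophoblast stem cells, had 5 members and rose from 6.45 and 6.46 to 35.5 and 35.4 CPM. Its annotation is very long (chr7:130162451-133123350), and Fgfr2 was the nearest gene within 100 kb for 2 members. Ascl2, an imprinted factor of the trophoblast, had 3 and rose from 4.42 and 4.49 to 12.0 and 11.4 CPM, and Krt18, an epithelial keratin next to Krt8, had 3 and rose from 8.97 and 9.86 to 251 and 230 CPM. Of 11 primitive endoderm markers 3 had a member within 50 kb and 8 rose, among them Gata4 and Pdgfra (1.03), while Lama1 was at 0.70. Of 13 posterior mesoderm markers 3 had one, and of 10 tested 5 rose and 3 fell. Msx2 rose by 2.54 and Bmp4 and Evx1 fell by 3.59 and 1.92 on the log2 scale. Of 10 intestinal markers 4 had one, and of 8 tested 3 rose and 1 fell. Lgals4 (0.59), Hnf4a (-0.78) and Muc2 (0.79) did not pass the 2-fold requirement. Of 12 naive pluripotency markers 5 had one, none rose and 2 fell. Klf5 (-0.22), Zfp42 (-0.75) and Esrrb (-0.41) did not pass the 2-fold requirement. The stem cell genes remained present, with Pou5f1 at 1469 and 1470 CPM in WT and 526 and 535 CPM in mCdx2-OE, Sox2 at 466 and 491 and then 226 and 263 CPM, and Nanog at 539 and 541 and then 927 and 798 CPM.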

How the data were processed

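The values used were read counts deposited by the authors, without normalisation. Per the labels and methods, reads were aligned to mm10 with STAR 2.7.0d (RNA) or Bowtie2 2.3.4.3 (ATAC and ChIP), peaks were called with MACS2 on merged reads at a -log10 q above 4 for ATAC, and counts were made with featureCounts. Peaks on merged reads cannot show binding in 1 library alone. Which ChIP column holds mCdx2-OE was inferred from the letters M and R in the headers, which do not name a construct. Totals were 6109353 and 8277850 in ATAC peaks, 5550846 and 6223794 in mESC ChIP peaks, 3387074 to 4357448 in RMES ChIP peaks, 12698443 to 94686029 for mESC RNA and 36166038 to 41418817 for RMES mouse alleles. Chromosomes X and Y were left out, and with them 4878 peaks would have qualified.

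RNA was tested with edgeR 4.0.16 (TMM, filterByExpr, quasi-likelihood, 1 model of 20 mESC libraries, 14 of them from 7 mutated rCdx2 constructs that share the filter, scaling and estimate of spread, or of 4 RMES libraries) and Benjamini-Hochberg adjustment over all genes, with log2 fold changes ± SE. DESeq2 1.42.0 was an alternative. Start sites were those of protein-coding transcripts in GENCODE vM21 basic, and sequence was that of GRCm38. The edgeR and word-search steps were tested on simulated data. The regions, gene lists and words were chosen with earlier results of these data known. Named were called genes of the factor lists, the 6 largest rises and 4 largest falls at promoter members (mean of at least 50 counts), the 10 genes with most members, and up to 3 markers a list. The 6 regions of largest ratio were to be shown, of which 1 is not reported here. Hoxa4 and genes nearest to a printed region follow from the printed regions. Krt8, Tead1, Tead4, Tfap2a, Tfap2c, Elf5, Zpld1, Sox2 and Nanog were named otherwise. Other files hold rat-genome values and were not used here.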

Additional observations from a re-analysis of the deposited data

Results flagged for a closer look

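In 4 Hox genes with a member within 50 kb, called in opposite directions in both cell lines, all Cdx2-OE libraries lay on opposite sides of WT in mESCs and in RMES mouse alleles, and this difference between the cell lines was not tested. Hoxa9 had a log2 fold change of 9.41 in mCdx2-OE mESCs and -3.65 in RMES cells, where it was at 43.9 and 46.7 CPM in the libraries labelled WT and at 3.27 and 3.95 CPM in mCdx2-OE and rCdx2-OE. Hoxa10 had 6.58 and -4.65, with 24.5 and 22.4 CPM against 0.810 and 1.05 CPM in RMES cells. Hoxc9 had 5.18 and -1.59, and Hoxc10 had 3.74 and -1.72. The RMES libraries labelled WT held Cdx2 at 129 and 127 CPM, against 1.36 and 1.21 CPM in WT mESCs. Hoxb9 also had its libraries on opposite sides, with 1.95 and -0.30, but was not called in RMES cells, and further named genes of this kind that were not called in both are not listed.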

How the results depend on the processing

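Of 75 recomputed values, 56 stayed within 1.5 times the reported count, or within the counting interval of a share, and 19 did not. The number of members, 4151, was 11086 without scaling of the libraries, 6722 and 1699 with a minimum sum of 20 and 100, 514 with a log2 ratio above 2, and 6418 where exclusion needed a Cdx2 peak over at least 50% of the region. The share with an RMES Cdx2 peak, 0.506%, was 0.235% at a minimum sum of 100, 1.17% with a log2 ratio above 2, 17.3% under that wider rule, and 0.0723% where 50% cover was asked of the RMES peak. The 390 genes called higher in mCdx2-OE became 947 of 3744 tested (25.3%) without scaling and 10 of 15 with a log2 ratio above 2. Without a fold threshold, 626 were called higher and 174 lower in mCdx2-OE, 616 higher in rCdx2-OE and 547 in RMES cells. With promoter and distal ratios centred separately, an alternative chosen after seeing the data like that without chromosomes 3 and 16, these counts were 175, 12, 178 and 152. TMM scaling gave 6013 members, centring on each chromosome 5577, DESeq2 390 genes higher and 39 lower. Without replicate 1 or 2, the genes called in mCdx2-OE were 340 to 359 higher and 36 to 44 lower, in rCdx2-OE 351 to 375, and in RMES cells without each library 354 to 361. Where 1 library of a group was left, it was assumed to vary like the other groups.

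Replicate numbers did not pair the libraries: over the 45 pairs of mESC conditions, mutated rCdx2 included, the correlation of same-numbered deviations ran from -0.14 to 0.45 with a median of -0.003. With a replicate block the counts were 391 higher and 42 lower in mCdx2-OE and 397 higher in rCdx2-OE. One ATAC library per condition and peaks called on merged ChIP reads limit every statement on opening and on missing binding.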
